A study of Mus musculus with 12 samples.

Results

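Glutathione, thioredoxin and NADPH supply are followed here through 10 genes in mouse leukaemia cells before and after chemotherapy: G6pdx, Pgd, Gclc, Gclm, Gsr, Gpx1, Gpx4, Txnrd1, Srxn1 and Prdx1. They are a list of named enzymes, set with earlier results of these data known and with no threshold on their values, and each matched 1 of the 24883 entries in every table of gene expression. RNA-seq was run on leukaemia cells sorted by their GFP from bone marrow, with 1 library per mouse. In all 12 mice the leukaemia was driven by the MLL-AF9 transgene, a fusion oncogene known from human leukaemia. Vehicle alone was given to 5 mice. The iCT group was 3 mice taken 3 days after induction chemotherapy with doxorubicin, a topoisomerase poison, and cytarabine, a nucleoside analogue. The relapse group was 4 mice taken 10 days after the same chemotherapy was completed. The labels name no strain, age or promoter of the transgene, nor whether the mice carried cells of 1 primary leukaemia. The labels give no time for the vehicle mice, so time and treatment cannot be told apart.

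Cells detoxify peroxides with electrons that come from NADPH. The oxidative pentose phosphate pathway makes NADPH through glucose-6-phosphate dehydrogenase (G6pdx) and 6-phosphogluconate dehydrogenase (Pgd). The first step of making glutathione from cysteine is carried out by glutamate-cysteine ligase, whose catalytic subunit is Gclc and whose modifier subunit is Gclm. Oxidized glutathione is returned to its reduced form by glutathione reductase (Gsr). Glutathione peroxidases spend reduced glutathione on hydrogen peroxide (Gpx1) or on lipid peroxides in membranes (Gpx4). In the parallel thioredoxin system, thioredoxin reductase (Txnrd1) keeps thioredoxin reduced, thioredoxin supplies peroxiredoxins such as Prdx1, and sulfiredoxin (Srxn1) repairs peroxiredoxins that have been over-oxidized. Several of these genes are textbook targets of NRF2, a transcription factor that binds antioxidant response elements. Anthracyclines such as doxorubicin can generate reactive oxygen species by redox cycling.

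Because NRF2 acts on promoters, the 250 bases before each RefSeq transcript start (GRCm38.p6) were searched on both strands for the core of that element, TGACNNNGC. RefSeq windows were at hand for 8 of the 10 genes, 14 windows in all; Gclc and Gsr had none. The sequences below show what was found. Each is the match in capitals with 10 bases on either side in lower case, read 5′ to 3′ on the strand that carries the motif. The element was found in 1 window each of G6pdx, Gclm, Txnrd1 and Prdx1. Srxn1 held TGAGTCAGC, a variant searched after its sequence was seen.

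G6pdx: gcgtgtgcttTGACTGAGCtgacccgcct
Gclm: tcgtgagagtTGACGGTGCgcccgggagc
Txnrd1: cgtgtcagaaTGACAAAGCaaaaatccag
Prdx1: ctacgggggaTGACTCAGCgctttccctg
Srxn1: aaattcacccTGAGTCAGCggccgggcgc

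The G6pdx stretch is chrX:74428919-74428947 on the plus strand, opposite to the gene, with its motif 57 to 49 bases before the RefSeq start and inside an exon that GENCODE M21 gives to a G6pdx transcript that starts further upstream. The Gclm stretch is chr3:122245413-122245441 on the minus strand, opposite to the gene, 134 to 126 bases before the start. That of Txnrd1 is chr10:82859104-82859132 on the minus strand, opposite to the gene, 92 to 84 bases before the second of 3 starts. The Prdx1 stretch is chr4:116685456-116685484 on the minus strand, opposite to the gene, 133 to 125 bases before the start. That of Srxn1 is chr2:152105469-152105497 on the plus strand, the strand of the gene, 45 to 37 bases before the start. These 4 stretches overlap no GENCODE exon of their gene. The Prdx1 and Srxn1 matches also contain an AP-1 site, as TGACTCA and TGAGTCA. Over all 32851 RefSeq windows of 250 bases, 10.2% held TGACNNNGC and 0.347% held TGAGTCAGC. These shares are not alike, since TGACNNNGC leaves 3 bases free and TGAGTCAGC is an exact run taken from the Srxn1 window. The share of TGAGTCAGC therefore does not measure how unusual the Srxn1 match is. The windows of Pgd, Gpx1 and Gpx4 held neither run of letters. A match is a description of the sequence, and binding was not measured.

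Values are FPKM, the fragments of a gene scaled to its length and to the library total, so levels of different genes can be set side by side. The depth implied by the deposited confidence intervals was 362268 to 8362627 fragments per library. The shallowest was iCT mouse 1, whose median gene rested on 13.9 implied fragments, against 43.9 to 293 in the others. Differences between groups are on the log2(FPKM + 1) scale and come from 1 limma fit of 11019 genes over all 12 libraries, with Benjamini-Hochberg adjusted p-values and a threshold of 0.05. All 10 genes passed the filter on low values. Each library came from a separate mouse, so p-values rest on the spread between libraries, in which differences between mice and counting error are mixed. That spread is 1 estimate per gene, shared by all groups, although the groups can differ in it. For Gclm the SD was 10.05 FPKM in iCT, 2.13 in vehicle and 2.32 in relapse.

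The sorted cells also differed in marker genes. All 9 markers of myeloid progenitors and leukaemia were detected, and in iCT 0 of them were called higher and 2 lower, Kit (from 25.8 to 6.84 FPKM on average) and Cd34 (from 89.7 to 26.9 FPKM). The median difference over the 9 was -0.19, with 2 above 0 and 7 below. Of 10 tissue macrophage markers 7 were tested and 6 were called higher in iCT, with a summed level of 61.1 to 102 FPKM in vehicle, 124 to 251 in iCT and 40.6 to 52.7 in relapse. Of 6 osteoclast markers 5 were tested and all 5 were called higher in iCT (11.7 to 26.6, 141 to 662 and 14.3 to 76.0 FPKM). The osteoclast markers Calcr and Dcstamp were listed at 0 in every vehicle mouse, and the macrophage marker Timd4 in every relapse mouse. Of 10 mature neutrophil markers 3 were called higher and 0 lower in iCT, with 7 above 0 and 3 below. Retnlg was among those below, from 118 to 23.2 FPKM on average (-2.36, adjusted p = 0.0551). The summed levels of the 10 neutrophil markers overlapped (3815 to 14520, 14420 to 18940 and 6529 to 15400 FPKM). The erythroid markers had 7 tested entries, with Hba-a1 and Hba-a2 each entered at 2 loci. In iCT 0 entries were called higher and 3 lower, Hbb-b1 and both entries of Hba-a1. The erythroid sums were 15.0 to 413.5, 5.41 to 13.5 and 47.3 to 166 FPKM. The 6 megakaryocyte markers had 2 tested and 1 called higher in iCT (1.87 to 7.40, 11.3 to 27.0 and 2.585 to 5.05 FPKM). For B cells 1 of 2 tested markers was called lower in iCT, and for T and NK cells 0 of 1 was called. The part of these cells in the results below was not tested. In a bulk library, fewer cells of a type and less RNA per cell cannot be told apart.

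In vehicle-treated leukaemia the 10 genes spanned a 567-fold range, with Gpx1, Pgd and Gpx4 at the top and the subunits of glutathione synthesis and Srxn1 at the bottom. Gpx1 led at 3087 FPKM on average and ranked 63rd among all entries. Below it came Pgd at 479, Gpx4 at 366, Gsr at 247, Prdx1 at 134 and G6pdx at 77.5 FPKM. Txnrd1 followed at 37.5, Gclm at 20.2, Gclc at 8.42 and Srxn1 at 5.44 FPKM. The ranges of neighbouring genes in this order did not overlap over the 5 vehicle mice. The closest neighbours were Pgd and Gpx4, with a ratio of means of 1.31.

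**Figure D1:**
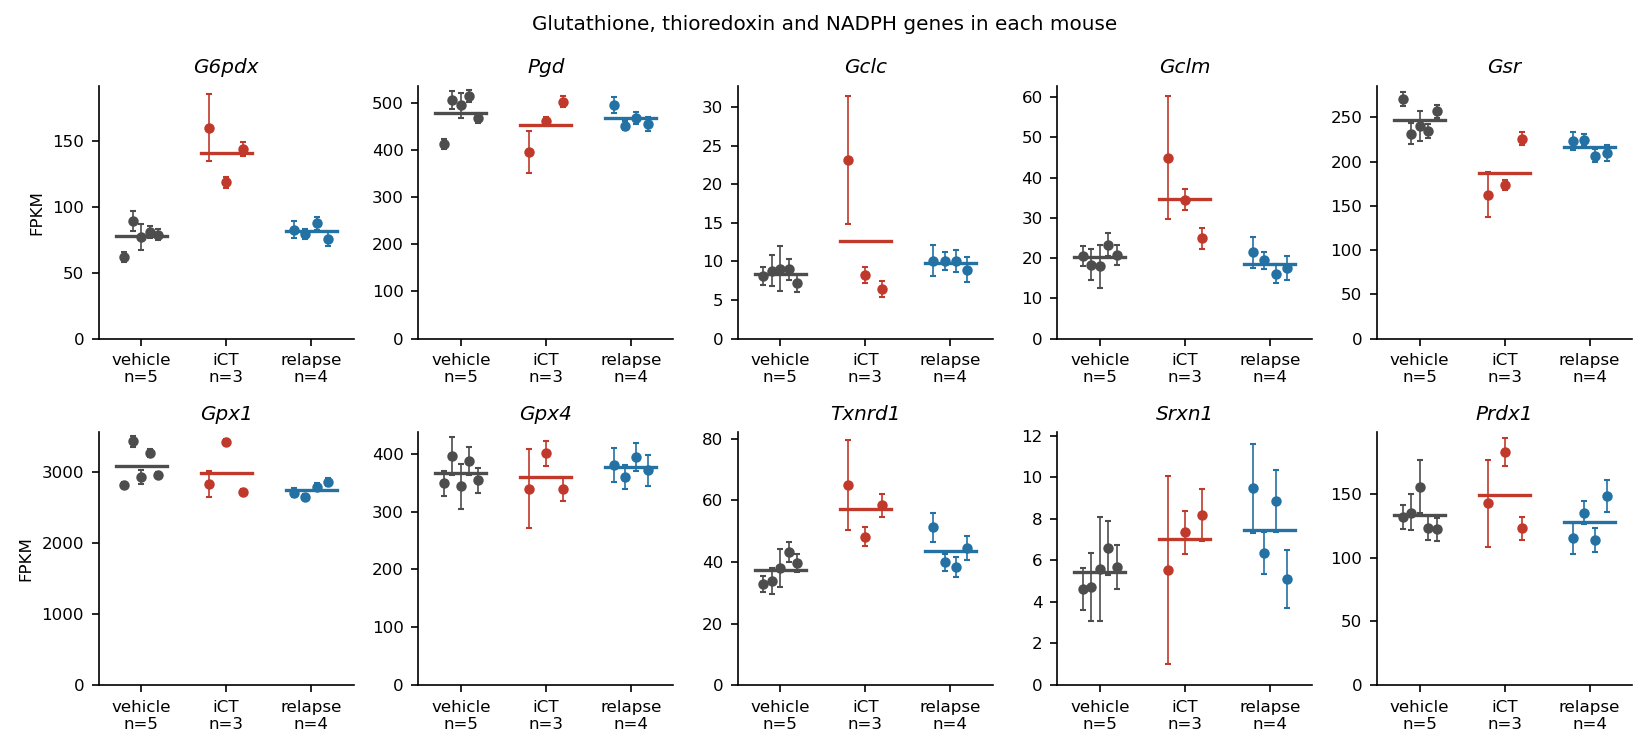
FPKM of each of the 10 genes (vertical axes from 0) in every mouse of the vehicle, iCT and relapse groups; points are mice, thin bars the deposited 95% intervals and thick lines group means. The 3 iCT mice lie above every vehicle mouse for G6pdx, Gclm and Txnrd1 and below them for Gsr, and the single high Gclc point is iCT mouse 1.

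The comparison of iCT with vehicle asks what leukaemia cells that are present 3 days after chemotherapy express. The first enzyme of NADPH supply, the modifier subunit of glutathione synthesis and thioredoxin reductase rose, glutathione reductase fell, while both glutathione peroxidases and Pgd did not pass the test. By limma, 3 of the 10 genes were higher (G6pdx, Gclm and Txnrd1) and 1 was lower (Gsr). Over all genes tested, 9.62% were called, 3.31% higher and 6.31% lower. The iCT and vehicle mice did not overlap in these 4 genes, nor, counting both directions, in 16.1% of all genes tested. The median difference of the 10 genes was 0.23, against -0.08 over all genes. Without iCT mouse 1 only G6pdx was called, and without vehicle mouse 3 only G6pdx and Txnrd1 were.

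G6pdx (chrX:74409486-74429161, minus strand), which catalyses the first and rate-limiting step of the pentose phosphate pathway, gave the clearest rise. Its level was 61.9, 88.9, 77.0, 80.8 and 78.8 FPKM in vehicle mice 1 to 5 and 159.8, 118.4 and 143.8 FPKM in iCT mice 1 to 3. It was 82.6, 79.3, 87.3 and 75.3 FPKM in relapse mice 1 to 4. Every iCT mouse stood above all 9 others, and the relapse values lay within the vehicle range. The difference of iCT from vehicle was 0.85 (SE 0.13, adjusted p = 0.0022), with a 95% confidence interval of 0.58 to 1.12. It was 0.75 (adjusted p = 0.00652) without the shallow iCT mouse 1. The G6pdx value of that mouse rested on 160 implied fragments, and those of the other libraries on 245 to 2968. In GENCODE M21, G6pdx shares 418 exon bases with Ikbkg on the opposite strand, and the labels do not say whether the libraries keep strand. Ikbkg, a regulatory subunit of the NF-kappaB kinase, was at 5.20 to 7.05 FPKM in vehicle, 3.07 to 6.08 in iCT and 5.43 to 7.09 in relapse. G6pd2, a retrogene copy of G6pdx whose reads could be shared with it, was at 2.24 to 3.51, 3.90 to 4.19 and 1.96 to 4.59 FPKM.

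Pgd (chr4:149149985-149166707, minus strand), which makes the second NADPH of the pathway, did not pass the test. It ranged from 412.6 to 514.1 FPKM in vehicle, from 395.9 to 502.6 in iCT and from 451.5 to 496.0 in relapse, and the groups overlapped. Its difference of iCT from vehicle was -0.08 with a 95% interval of -0.30 to 0.13 (adjusted p = 0.591). The upper bound lies below the lower bound of G6pdx. Within a library the ratio of the 2 genes is free of any scaling of the library. G6pdx stood at 15.0% to 17.6% of Pgd in vehicle, at 25.7% to 40.4% in iCT and at 16.6% to 18.7% in relapse, so the iCT mice lay apart from the other 9.

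Gclm (chr3:122245557-122267215, plus strand), the modifier that makes glutamate-cysteine ligase more efficient, also rose. It was at 20.5, 18.4, 18.0, 23.3 and 20.7 FPKM in vehicle mice 1 to 5 and at 45.0, 34.5 and 24.9 FPKM in iCT mice 1 to 3. In relapse mice 1 to 4 it was at 21.4, 19.5, 16.2 and 17.4 FPKM. All iCT mice stood above all others, but iCT mouse 3 by only a small margin. The highest value, that of iCT mouse 1, rested on 34.2 implied fragments, with a deposited interval of 29.6 to 60.4 FPKM. The difference from vehicle was 0.73 (SE 0.17, 95% interval 0.36 to 1.10, adjusted p = 0.0224). Leaving out iCT mouse 1 ended the call (0.53, adjusted p = 0.0636), as did leaving out vehicle mouse 3 (0.69, adjusted p = 0.0505). Array weights (0.46, adjusted p = 0.147) and a fit of only the 2 groups (adjusted p = 0.0726) ended it too. Gclm shares 296 exon bases with Gm17494 on the opposite strand and 244 with the pseudogene Gm6061 on its own strand, so its reads could be split.

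Gclc (chr9:77754535-77794489, plus strand), the catalytic subunit, did not pass the test and rested on 1 library. It was at 8.09, 8.80, 9.06, 8.97 and 7.18 FPKM in vehicle mice 1 to 5. In iCT mice 1 to 3 it was at 23.1, 8.21 and 6.39 FPKM. Only iCT mouse 1 was high, with a deposited interval of 14.8 to 31.4 FPKM and 31 implied fragments. The difference was 0.33 (SE 0.29, 95% interval -0.30 to 0.96, adjusted p = 0.458), and -0.19 without that mouse. The relapse mice lay at 10.1, 10.0, 10.0 and 8.92 FPKM, which overlaps the vehicle range. Gclm stood at 198% to 288% of Gclc in vehicle and at 161% to 212% in relapse. In iCT the 3 mice gave 195%, 421% and 390%, so this ratio did not separate the groups.

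Gsr (chr8:33653238-33698162, plus strand), which uses NADPH to regenerate glutathione, moved the other way. It was at 270.6, 231.4, 239.8, 234.4 and 256.9 FPKM in vehicle mice 1 to 5 and at 162.5, 173.6 and 226.1 FPKM in iCT mice 1 to 3. In relapse mice 1 to 4 it was at 223.4, 224.9, 206.4 and 210.1 FPKM. Every vehicle mouse stood above the 7 treated mice, while iCT and relapse overlapped. The fall from vehicle to iCT was -0.41 (SE 0.11, 95% interval -0.64 to -0.18, adjusted p = 0.0332). This call was the weakest of the 4. It ended without iCT mouse 1 (-0.31, adjusted p = 0.117) or without vehicle mouse 1, 3, 4 or 5 (-0.42 to -0.37, adjusted p = 0.0503 to 0.0741). It also ended after median-of-ratios scaling (-0.36, adjusted p = 0.0554), quantile normalization (-0.37, adjusted p = 0.0687), under array weights (-0.27, adjusted p = 0.184) and when only the 2 groups were fitted (adjusted p = 0.105).

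Txnrd1 (chr10:82833951-82897724, plus strand), the cytosolic thioredoxin reductase and a selenoprotein, rose. It was at 32.8, 33.8, 38.0, 43.2 and 39.6 FPKM in vehicle mice 1 to 5 and at 65.1, 48.3 and 58.4 FPKM in iCT mice 1 to 3. In relapse mice 1 to 4 it was at 51.2, 39.9, 38.4 and 44.6 FPKM. The iCT mice stood above all vehicle mice, relapse mice 1 and 4 also lay above all vehicle mice, and relapse mouse 1 above iCT mouse 2. The difference of iCT from vehicle was 0.59 (SE 0.13, 95% interval 0.30 to 0.89, adjusted p = 0.0192). The call ended without iCT mouse 1 (0.50, adjusted p = 0.0593), under array weights (0.51, adjusted p = 0.0843) and when only the 2 groups were fitted (adjusted p = 0.0561). Set against Gsr, the reductase of the glutathione system, Txnrd1 stood at 12.1% to 18.4% in vehicle, at 25.8% to 40.0% in iCT and at 17.8% to 22.9% in relapse.

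**Figure D2:**
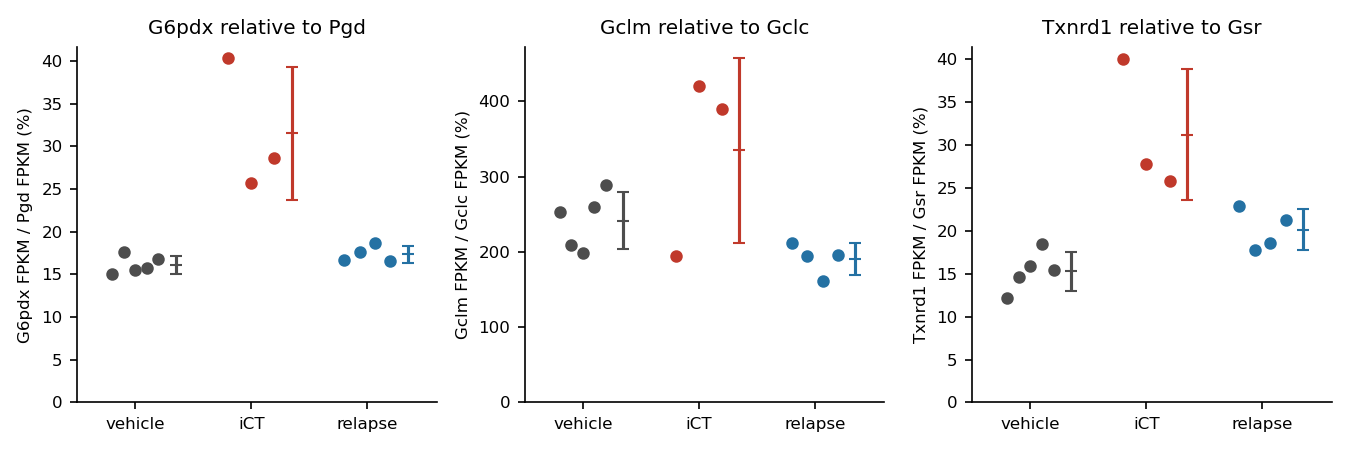
Level of one enzyme as a percent of its partner in the same library (vertical axes from 0, percent), for G6pdx over Pgd, Gclm over Gclc and Txnrd1 over Gsr; points are mice and bars the mean and SD of a group. The iCT mice lie apart at 25.7% or more for G6pdx over Pgd and 25.8% or more for Txnrd1 over Gsr, whereas for Gclm over Gclc iCT mouse 1 lies at 195%, below the vehicle range.

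The enzymes that act on peroxides showed no call. Gpx1, the most abundant, ranged from 2822 to 3440 FPKM in vehicle and from 2722 to 3437 in iCT, a difference of -0.05 (95% interval -0.26 to 0.17, adjusted p = 0.777). Gpx4, which limits lipid peroxidation and ferroptosis, ranged from 343.7 to 396.4 FPKM in vehicle and from 339.7 to 400.8 in iCT, a difference of -0.03 (95% interval -0.21 to 0.16, adjusted p = 0.859). For both, the sign turned under median-of-ratios scaling and quantile normalization. Prdx1 ranged from 122.3 to 155.7 FPKM in vehicle and stood at 142.5, 183.0 and 122.9 FPKM in iCT mice 1 to 3, so only iCT mouse 2 was above the vehicle range. Its difference was 0.14 (95% interval -0.15 to 0.44, adjusted p = 0.49). Srxn1 was at 4.62, 4.72, 5.60, 6.60 and 5.67 FPKM in vehicle mice 1 to 5 and at 5.53, 7.34 and 8.19 FPKM in iCT mice 1 to 3. The deeper iCT libraries, mice 2 and 3, lay above the vehicle range, and mouse 1 rested on 6 implied fragments. The Srxn1 difference was 0.31 (SE 0.20, adjusted p = 0.313) and did not pass the test.

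The comparison of relapse with vehicle asks whether the leukaemia that grows back differs from leukaemia given vehicle alone. By limma 0 of the 10 genes were called, and 0 had an unadjusted p under 0.05. Of all genes 0% were called in the fit over all 12 libraries, although 1604 had an unadjusted p under 0.05. That count depended on the fit, with 971 genes called under array weights and 595 when only the 2 groups were fitted. None of the 10 genes was called in either. The intervals were narrowest for Gpx4 (-0.13 to 0.21) and widest for Gclc (-0.38 to 0.77). G6pdx differed by 0.07 (95% interval -0.18 to 0.32, adjusted p = 0.832), an upper bound below the lower bound of its iCT rise. In Gsr every relapse mouse lay below every vehicle mouse, with a difference of -0.19 (95% interval -0.40 to 0.02, adjusted p = 0.411). Groups that did not overlap, in whichever direction, were found in this 1 of the 10 genes and in 13.7% of all genes. Srxn1 was at 9.47, 6.35, 8.85 and 5.10 FPKM in relapse mice 1 to 4, and mice 1 and 3 were above all vehicle mice. Its difference of 0.37 (SE 0.19, adjusted p = 0.399) was the largest of the 10 in this comparison.

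The comparison of relapse with iCT sets mice taken at 10 days against other mice taken at 3 days. G6pdx fell by 0.78 (SE 0.13, adjusted p = 0.00515) and Gclm by 0.84 (SE 0.18, adjusted p = 0.0143). In both, every relapse mouse lay below every iCT mouse. Groups that did not overlap, in whichever direction, were found in these 2 of the 10 genes and in 23.3% of all genes. Of all genes 9.72% were called in this comparison, 6.62% higher and 3.1% lower. The 2 comparisons share the iCT mice, so these falls are not independent of the rises above. The Gclm call ended under array weights (-0.60, adjusted p = 0.0582) and when only the 2 groups were fitted (adjusted p = 0.0762). The median of all genes was 0.16 here and 0.02 after quantile normalization, where G6pdx differed by -0.79 and Gclm by -0.90. Txnrd1 did not pass at -0.39 (SE 0.14, adjusted p = 0.0991), but did without iCT mouse 2 (-0.50, adjusted p = 0.0417) and after median-of-ratios scaling (-0.51, adjusted p = 0.0318). Gsr differed by 0.22 (adjusted p = 0.209), and by 0.36 (adjusted p = 0.0274) without iCT mouse 3. The other 6 genes differed by -0.21 (Prdx1) to 0.07 (Gpx4), with adjusted p of 0.344 or more.

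**Figure D3:**
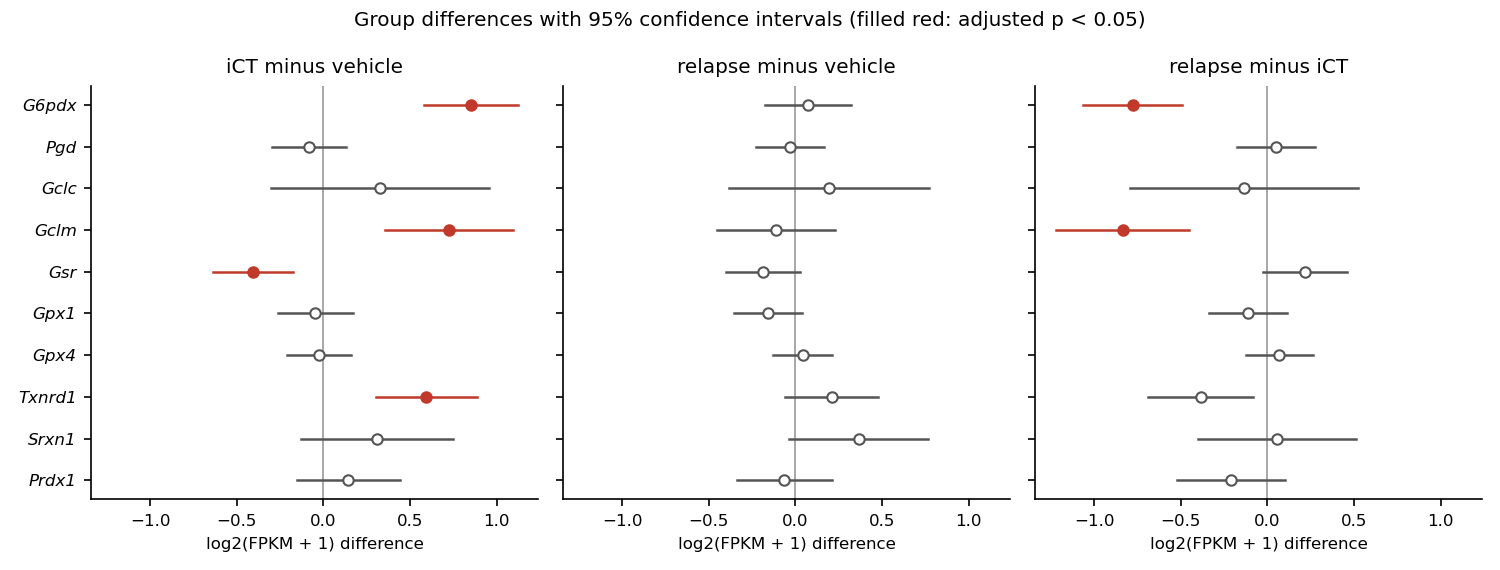
Difference between groups on the log2(FPKM + 1) scale (horizontal axes) for the 10 genes in the 3 comparisons; points are limma estimates, bars 95% confidence intervals, and filled red marks passed an adjusted p of 0.05. The marks of G6pdx stand at 0.85, 0.07 and -0.78, and no gene is filled in the comparison of relapse with vehicle.

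The wider pathways were read from 8 lists that hold 129 further genes, of which 103 were tested. In iCT against vehicle 8 were higher and 8 lower (15.5% called, against 9.62% of all genes, 3.31% higher and 6.31% lower), with a median difference of -0.07 against -0.08 over all genes. In relapse against vehicle 0 were called by limma, against 0% of all genes. An unadjusted p under 0.05 was found in 17 of the 103, against 1604 of all 11019 genes tested. In relapse against iCT 8 were higher and 8 lower (15.5% called, against 9.72% of all genes, 6.62% higher and 3.1% lower), with a median of 0.11 against 0.16.

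NADPH supply outside the 2 members had 16 tested genes, and 0 rose and 2 fell in iCT. Taldo1, transaldolase of the non-oxidative pentose phosphate branch, was at 765.7, 854.6, 826.3, 905.9 and 812.3 FPKM in vehicle mice 1 to 5 and at 530.5, 673.6 and 618.1 FPKM in iCT mice 1 to 3. No iCT mouse reached the lowest vehicle mouse, and the difference was -0.46 (SE 0.10, adjusted p = 0.0145; 0.0505 without iCT mouse 1). Idh2, the mitochondrial isocitrate dehydrogenase that makes NADPH, ranged from 165.4 to 211.0 FPKM in vehicle and from 101.0 to 155.1 in iCT. Its difference was -0.51 (adjusted p = 0.0393), which ended without any of 8 libraries (adjusted p = 0.0556 to 0.123) and was -0.31 without iCT mouse 1. So among the tested genes of the NADPH supply list only G6pdx was called higher, and Taldo1 and Idh2 lower. In relapse both stood above iCT, Idh2 by 0.72 (adjusted p = 0.0118) and Taldo1 by 0.43 (adjusted p = 0.0214; 0.0577 to 0.0679 without iCT mouse 1, relapse mouse 1 or relapse mouse 4).

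Glutathione synthesis and turnover outside the 3 members had 14 tested genes, and 1 rose and 0 fell in iCT. Slc3a2, the heavy chain that pairs with the cystine importer xCT, was at 34.0, 36.8, 36.2, 47.9 and 42.4 FPKM in vehicle mice 1 to 5 and at 54.8, 54.5 and 61.4 FPKM in iCT mice 1 to 3. All iCT mice were above all vehicle mice, a difference of 0.53 (SE 0.13, adjusted p = 0.0251; 0.0513 to 0.0594 without vehicle mouse 2, vehicle mouse 3 or iCT mouse 3). In relapse it fell from iCT by 0.52 (adjusted p = 0.0292; 0.0538 to 0.0788 without iCT mouse 3, relapse mouse 1 or relapse mouse 4). Slc7a11, the light chain xCT itself, was at 19.4, 13.8 and 14.5 FPKM in iCT mice 1 to 3 and at 9.62, 7.21, 7.72 and 10.2 FPKM in relapse mice 1 to 4. It fell from iCT to relapse by 0.80 (adjusted p = 0.0183; 0.0515 and 0.0554 without relapse mouse 3 and mouse 2). Its vehicle values of 9.99 to 14.9 FPKM overlapped both groups. Glrx, the cytosolic glutaredoxin, fell from iCT to relapse by 0.43 (adjusted p = 0.0198; 0.0501 to 0.0547 without iCT mouse 1, relapse mouse 1 or relapse mouse 4).

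Of 9 tested peroxidases, peroxiredoxins and dismutases outside the members, 1 rose and 1 fell in iCT. Gpx3, the secreted glutathione peroxidase, was at 114.7, 140.5, 147.2, 131.8 and 119.7 FPKM in vehicle mice 1 to 5 and at 60.3, 82.8 and 82.2 FPKM in iCT mice 1 to 3. It fell by 0.80 (SE 0.14, adjusted p = 0.00478) and stood 0.87 higher in relapse than in iCT (adjusted p = 0.00459). The Gpx3 call held without any single library, unlike that of Sod1, the cytosolic superoxide dismutase. Sod1 was higher in iCT by 0.47 (adjusted p = 0.0465), a call that ended without any of 10 libraries (adjusted p = 0.0513 to 0.0997).

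Of 13 tested genes of the thioredoxin system outside the members, 1 rose and 1 fell in iCT. Sesn2, a sestrin induced by p53 and by oxidative stress, was at 2.80, 1.83, 3.87, 3.25 and 3.20 FPKM in vehicle mice 1 to 5 and at 9.80, 4.51 and 11.5 FPKM in iCT mice 1 to 3. The iCT mice stood above all vehicle mice, a difference of 1.21 (SE 0.27, adjusted p = 0.0186; 0.0532 without iCT mouse 1 and 0.0511 without iCT mouse 3). Msra, a methionine sulfoxide reductase, differed by -0.47 (adjusted p = 0.0499), which ended without any of 10 libraries (adjusted p = 0.0602 to 0.15) and was -0.27 without iCT mouse 1. Txnrd3, a thioredoxin-glutathione reductase, stood 0.79 higher in relapse than in iCT (adjusted p = 0.0193; 0.0509 and 0.0547 without relapse mouse 1 and mouse 4). It was low, at 2.10 to 5.78 FPKM over those mice, and its call ended after quantile normalization (0.52, adjusted p = 0.0884).

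Other genes linked to NRF2 gave 3 higher and 0 lower of 19 tested in iCT. Hmox1, the haem oxygenase, was at 6.74, 7.61, 11.2, 8.16 and 5.43 FPKM in vehicle mice 1 to 5 and at 24.5, 23.0 and 42.1 FPKM in iCT mice 1 to 3. It rose by 1.79 (SE 0.28, adjusted p = 0.00316) and fell by 2.12 from iCT to relapse (adjusted p = 0.00184). Fth1, the ferritin heavy chain that stores iron, ranged from 604.3 to 702.4 FPKM in vehicle and from 974.6 to 1198 in iCT. It rose by 0.70 (SE 0.09, adjusted p = 0.000911) and fell by 0.66 from iCT to relapse (adjusted p = 0.00206). Ephx1, microsomal epoxide hydrolase, went from 0 to 1.25 FPKM in vehicle to 2.63 to 3.29 FPKM in iCT (1.46, adjusted p = 0.0093; 0.0938 with array weights). From iCT to relapse Ephx1 fell by 1.21 (adjusted p = 0.0249; 0.0541 to 0.0676 without iCT mouse 1 or relapse mouse 1, 2 or 3). At a pseudocount of 0.1 its 2 differences were 2.89 and -2.08, and the second was no longer called (adjusted p = 0.126). That second call also ended under array weights (adjusted p = 0.0984) and when only the 2 groups were fitted (adjusted p = 0.0653). Hmox1 and Fth1 are high in macrophages, whose summed markers also were higher in iCT, and their part was not tested. NRF2 itself (Nfe2l2), its inhibitor Keap1, its competitor Bach1 and the target Nqo1 were not called in iCT (-0.17, 0.12, -0.21 and 0.29, adjusted p = 0.456, 0.628, 0.401 and 0.599), and Nqo1 averaged only 0.533 FPKM in vehicle.

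**Figure D4:**
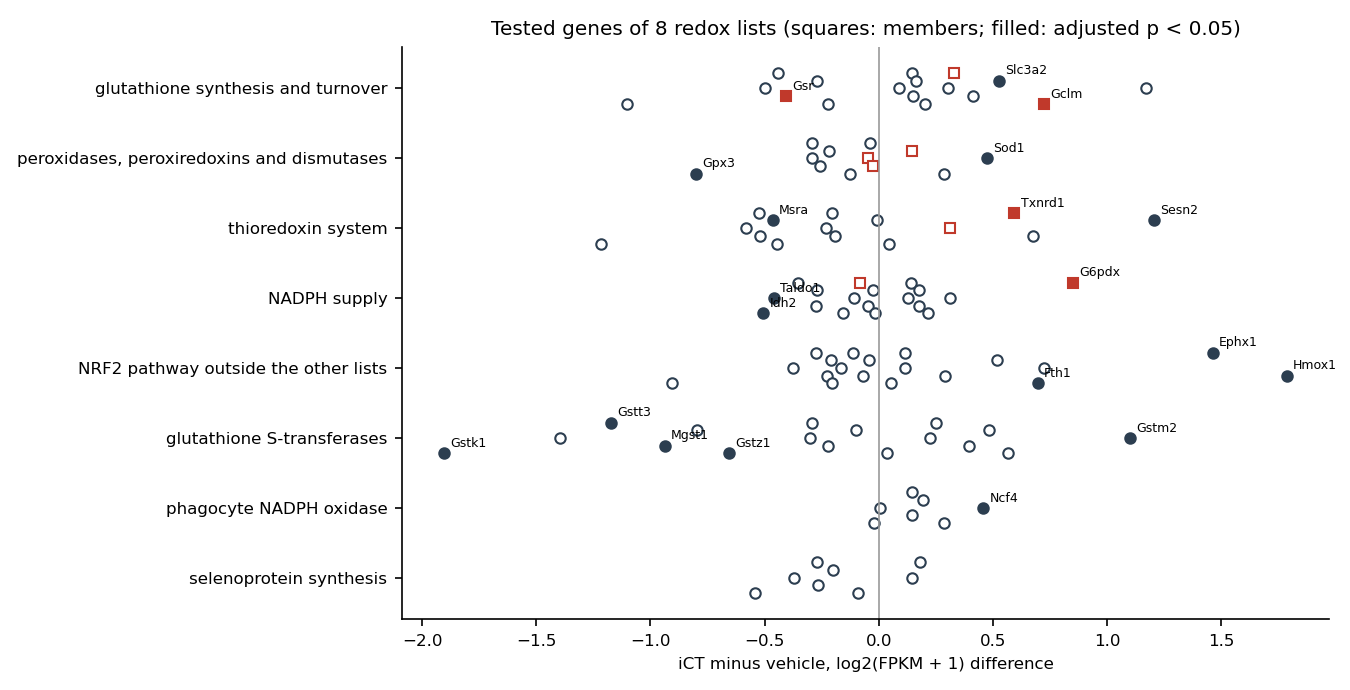
Difference of iCT from vehicle on the log2(FPKM + 1) scale (horizontal axis) for every tested gene of 8 lists of redox genes (rows); red squares are the 10 genes described above, dark circles the 103 others, and filled, named marks passed an adjusted p of 0.05. In the NADPH supply row G6pdx at 0.85 is the only filled mark right of 0, and the glutathione S-transferase row holds 4 filled marks left of 0 and 1 to the right.

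Of 17 tested glutathione S-transferases, which couple glutathione to drugs and lipids, 1 rose and 4 fell in iCT. Gstm2 was at 15.3, 15.7, 15.6, 15.4 and 16.9 FPKM in vehicle mice 1 to 5 and at 41.3, 29.2 and 35.2 FPKM in iCT mice 1 to 3. It rose by 1.10 (SE 0.17, adjusted p = 0.00264), and it belongs to a family with near-identical copies whose reads may be split. Mgst1, a membrane-bound member, ranged from 107.1 to 139.0 FPKM in vehicle and from 42.2 to 74.7 in iCT, and fell by 0.94 (adjusted p = 0.00597). Gstt3 fell by 1.17 (adjusted p = 0.00663; 0.0601 with array weights), and Gstk1 by 1.90 (adjusted p = 0.0167; 0.0631 under array weights and 0.0539 when only the 2 groups were fitted). Gstk1 was listed at 0 in iCT mouse 1 and at 1.19 and 3.32 FPKM in the other iCT mice, against 4.01 to 10.3 in vehicle, and its difference was -3.20 at a pseudocount of 0.1. Gstz1, the fourth that fell, differed by -0.66 (adjusted p = 0.0376). It lies outside the naming rule and is named to complete the count. From iCT to relapse Gstt3 rose by 1.17 (adjusted p = 0.00928) and Gstk1 by 1.95 (adjusted p = 0.0176). The Gstk1 difference was 3.25 at a pseudocount of 0.1. Its call ended under array weights (adjusted p = 0.053) and when only the 2 groups were fitted (adjusted p = 0.0765). It also ended with a block on mouse number (adjusted p = 0.0719). Gstz1 rose by 0.73 from iCT to relapse (adjusted p = 0.0292). That call ended without iCT mouse 1 or relapse mouse 1, 2 or 3 (adjusted p = 0.0623 to 0.0790). Median-of-ratios scaling (0.62, adjusted p = 0.0638) and quantile normalization (0.57, adjusted p = 0.0823) ended it too. So did array weights (adjusted p = 0.0654), a fit of only the 2 groups (adjusted p = 0.0967) and a block on mouse number (adjusted p = 0.0788). Gstm2 fell by 0.67 (adjusted p = 0.0323; 0.0769 to 0.0892 without iCT mouse 1, relapse mouse 2 or relapse mouse 4).

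Phagocyte NADPH oxidase, which spends NADPH to make superoxide, had 7 tested genes, and 1 rose in iCT. Ncf4, its p40 subunit, ranged from 121.4 to 149.7 FPKM in vehicle and from 188.8 to 193.9 in iCT, a difference of 0.46 (SE 0.11, adjusted p = 0.0223; 0.0532 without iCT mouse 1). It fell by 0.45 from iCT to relapse (adjusted p = 0.028; 0.0598 to 0.0776 without iCT mouse 1, relapse mouse 2 or relapse mouse 4). Ncf4 is expressed in neutrophils and macrophages, whose marker sums are given above, and their part in this result was not tested. The machinery of selenoprotein synthesis, on which Gpx1, Gpx4 and Txnrd1 depend, had 8 tested genes and 0 calls by limma in iCT. An unadjusted p under 0.05 was found in 1 of the 8, against 3282 of all 11019 genes tested. From iCT to relapse 1 of the 8 rose, the elongation factor Eefsec, by 0.57 (adjusted p = 0.045). That call ended without any of 8 libraries (adjusted p = 0.0559 to 0.114) and its value was 0.38 without iCT mouse 1. Median-of-ratios scaling (0.45, adjusted p = 0.0855) and quantile normalization (0.49, adjusted p = 0.0783) ended it too. So did no filter (adjusted p = 0.0638), array weights (adjusted p = 0.116), a fit of only the 2 groups (adjusted p = 0.128) and a block on mouse number (adjusted p = 0.147).

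The calls of the named list genes differed in how far they held. Of the 15 named in iCT against vehicle, 4 kept their call in every alternative tried (Fth1, Hmox1, Gstm2 and Mgst1), and of the 16 in relapse against iCT 4 did (Fth1, Hmox1, Gpx3 and Gstt3). With array weights 6 of 15 and 6 of 16 kept it, and in a fit of only the 2 groups 7 of 15 and 4 of 16. Among the 10 members only G6pdx kept its call in all 21 alternatives, in both comparisons.

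The 5 genes whose pattern over the 12 libraries was most like that of G6pdx were found by the root mean square difference of z-scores. The closest was Ptp4a3, a tyrosine phosphatase (0.277; 19.2 to 25.8 FPKM in vehicle, 33.4 to 34.7 in iCT and 21.4 to 25.2 in relapse). Next came the ubiquitin-conjugating enzyme Cdc34 (0.278; 88.3 to 122, 187 to 219 and 103 to 118 FPKM). The third was Mrc1 (0.311), a mannose receptor and a gene of the macrophage marker list, at 0.0274 to 0.428 FPKM in vehicle, 2.13 to 6.58 in iCT and 0.0612 to 0.164 in relapse. Mybl2 (0.315), a cell cycle transcription factor, and Jak3 (0.332), a cytokine receptor kinase, followed. The libraries share their depth and their cell make-up, so the likeness is a description.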

How the data were processed

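The authors made the 12 deposited tables of FPKM, with 95% bounds, with the tools STAR and Cufflinks, as named in the submitters' processing notes. Versions, options, gene models and strandedness were not given in the sources used here. Although those notes list mm9, 99.4% of 23030 symbols lay on the GRCm38 gene with that symbol, so coordinates are given as GRCm38, with starts counted from 1. Implied fragments are (2 times FPKM divided by the upper half-width of its interval) squared, and cover counting error only. The 2 entries with a failed estimate were left out.

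Genes that reached an FPKM of 1 in 3 or more libraries (11019) were fitted as log2(FPKM + 1) with limma 3.58.1 (R 4.3.3), group as the only term and a variance trend, and p-values were adjusted over all genes tested. A pseudocount of 1 understates changes of low genes. The fit was tested on simulated data in which the spread of a gene was equal in all 12 libraries, so their unequal depth was not simulated. Groups came from the sample titles. Members and lists were chosen with earlier results of these data known. Named genes were the 10 members and, per list and comparison, up to 4 called genes with the smallest p, and the 5 most like G6pdx. Alternatives were pseudocounts of 0.1 and 0.5, no filter, a filter at 5, median-of-ratios and quantile scaling, array weights (statmod 1.5.0), a fit of only the 2 groups, a block on mouse number and leaving out each library. Promoter sequences are from RefSeq (GRCm38.p6). Protein sequences were not used here.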

Additional observations from a re-analysis of the deposited data

Results flagged for a closer look

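In groups of 4 or 5 mice a single mouse was called apart from its group when its gap to the nearest other mouse was a large part of the whole range (Dixon's 95% criterion). Of 60 groups tested over the named genes 4 met it, and chance alone gives about 1 in 20. Gclc in relapse mouse 4 was the lowest of its group at 8.92 FPKM, against 10.0 to 10.1 in the other relapse mice, a gap within the deposited intervals of that library (7.29 to 10.5 FPKM). Msra in relapse mouse 3 was the highest at 77.8 FPKM, against 64.8 to 67.0. Idh2 in relapse mouse 4 was the highest at 246.3 FPKM, against 210.5 to 215.8. Gstm2 in vehicle mouse 5 was the highest at 16.9 FPKM, against 15.3 to 15.7. The iCT group holds 3 mice and was not tested in this way.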

How the results depend on the processing

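Depth limits Srxn1, Gclc and Gclm most, at 6, 31 and 34.2 implied fragments in iCT mouse 1. Of 1279 recomputed gene values over the named genes, 1084 kept direction and side of the threshold, 164 lost the call, 3 gained one and 28 changed sign. G6pdx kept both calls in 21 of 21 alternatives (0.75 to 0.97 and -0.90 to -0.68).

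Members called in iCT against vehicle numbered 1 with array weights, 1 in a fit of only the 2 groups and 1 with the replicate block, and 1 to 4 when each library was left out. In relapse against iCT they numbered 1 with array weights and 1 in the fit of only the 2 groups. Over all genes, iCT against vehicle gave 457 calls with array weights, 341 in the fit of the 2 groups, 197 with the block and 569 to 2722 with a library left out. Relapse against iCT gave 603, 236 and 372, and 529 to 1855. Relapse against vehicle gave 1 with no filter, 971 with array weights, 595 in the fit of the 2 groups and 0 to 5 with a library left out. No member was called there in any alternative. The causes were not tested.

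Signs changed only in member values that had not passed the test. In iCT against vehicle, array weights gave Gclc -0.10, median-of-ratios scaling gave Gpx1 0.0048 and Gpx4 0.025, and quantile normalization gave Gpx1 0.050, Gpx4 0.051 and Pgd 9.9e-05. In relapse against iCT, array weights gave Gclc 0.35, Pgd -0.052 and Srxn1 -0.067, median-of-ratios scaling gave Gpx4 -0.054, Pgd -0.072 and Srxn1 -0.051, and quantile normalization gave Srxn1 -0.13. In relapse against vehicle, median-of-ratios scaling gave Gpx4 -0.029 and quantile normalization gave Pgd 0.039. With a library left out, iCT against vehicle spanned -0.19 to 0.67 for Gclc, -0.15 to 0.020 for Gpx1, -0.11 to 0.014 for Gpx4, -0.16 to 0.011 for Pgd and -0.0098 to 0.28 for Prdx1. Relapse against iCT spanned -0.47 to 0.38 for Gclc, -0.044 to 0.13 for Pgd and -0.086 to 0.20 for Srxn1, and relapse against vehicle -0.0041 to 0.12 for G6pdx.

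No sign of pairing by mouse number was seen, though so few pairs cannot exclude it. Deviations of same-numbered mice correlated at -0.091 to 0.099 over 10 pairs, and of the 11 mice with a same-numbered mouse in another group 0 had it as their best partner. With the replicate block, G6pdx was the 1 member called in iCT against vehicle; Gclm had an adjusted p of 0.0655, Txnrd1 of 0.0703 and Gsr of 0.156. Of the named list genes 7 of 15 kept their call with the block in that comparison and 6 of 16 in relapse against iCT.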
